A study of Mus musculus with 16 samples.

Results

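The 50 genes described here encode proteins of the G2 to M transition and of mitosis: the kinase Cdk1 with its cyclins, other mitotic kinases, spindle checkpoint proteins, kinesins, kinetochore proteins and cytokinesis factors. They were chosen by function, with earlier results of these data known, as a list of gene symbols. Each symbol matched 1 of the 55487 gene identifiers in the deposited counts. All 50 passed the filter on low counts that left 24252 genes for testing. The samples were 16 bulk RNA-seq libraries from cultured mouse mammary organoids, which are small epithelial structures grown from breast tissue. WT organoids (n = 3) came from normal breast. Organoids with a PIK3CA mutation (n = 4), a HER2 mutation (n = 4) or both (n = 5, called double mutant) came from breast tumors. The series names the alleles as HER2 V777L, a change in the kinase domain of the receptor encoded by Erbb2, and PIK3CA H1047R, a change in the catalytic subunit of phosphoinositide 3-kinase. The labels give 1 culture medium for all groups, supplied with EGF and with Rspo1- and Noggin-conditioned medium. The labels do not give the promoter or Cre that drives either allele, the mouse strain or age, or whether replicates are separate animals, so the p-values measure the spread between these samples, which may be in part technical. Genotype and tissue source are the same split in every comparison with WT and cannot be told apart there.

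Cells enter mitosis when cyclin B and Cdk1 become active, after the Cdc25 phosphatases remove inhibitory phosphates from Cdk1. The spindle checkpoint holds the anaphase-promoting complex (APC/C) inactive until kinetochores are attached, and Cdc20 then activates the complex, which marks cyclin B and securin for degradation. Transcription of most of these genes peaks in G2 and M phase. They are repressed in quiescent cells by the DREAM complex and activated in dividing cells by B-Myb, MuvB and FoxM1. In a bulk sample, fewer cells of a type and less RNA per cell cannot be told apart.

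The promoters of the members are shown because most of the members shared the direction of their estimates. The sequences are from RefSeq on GRCm38.p6, which held 42 of the 50 members in windows from 250 bases before to 50 bases after the start of the gene. The window was searched on both strands for TTTGAA, the core of the cell cycle genes homology region (CHR) bound by DREAM and MuvB complexes, for its variant TTTAAA, and for CCAAT, the box bound by NF-Y. TTTGAA was present in 31 of the 42 promoters (73.8%) and in 20.2% of the 27025 genes in the table. TTTAAA was present in 9 of 42 (21.4%), against 14.9% of all genes. CCAAT was present in 32 of 42 (76.2%), against 41.1% of all genes. Both TTTGAA and CCAAT stood in 26 of 42 (61.9%), against 7.97% of all genes. A match is a description of the letters and not of a bound site, and a part of the motifs in the changes was not tested. The lines below give 8 promoters of members with different roles, 5′ to 3′ on the gene's strand from 120 bases before to 30 bases after the start, with the motifs in capitals. On the opposite strand a TTTGAA element is written TTCAAA, and the box bound by NF-Y there is written as ATTGG.
Cdk1, chr10:69352883-69353032, minus strand: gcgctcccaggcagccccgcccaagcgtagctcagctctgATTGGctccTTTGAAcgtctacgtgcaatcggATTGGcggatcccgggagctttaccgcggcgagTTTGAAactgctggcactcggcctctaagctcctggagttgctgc
Ccnb1, chr13:100786457-100786606, minus strand: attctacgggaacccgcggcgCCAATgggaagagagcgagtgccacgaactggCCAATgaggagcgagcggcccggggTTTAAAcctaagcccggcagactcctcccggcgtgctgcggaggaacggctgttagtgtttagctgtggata
Ccnb2, chr9:70421525-70421674, minus strand: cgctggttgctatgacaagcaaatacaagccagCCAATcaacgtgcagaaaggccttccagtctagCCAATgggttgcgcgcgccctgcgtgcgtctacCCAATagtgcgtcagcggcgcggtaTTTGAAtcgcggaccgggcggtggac
Cdc20, chr4:118437314-118437463, minus strand: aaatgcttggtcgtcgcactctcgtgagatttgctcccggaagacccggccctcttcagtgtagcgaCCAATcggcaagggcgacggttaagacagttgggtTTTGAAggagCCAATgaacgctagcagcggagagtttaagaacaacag
Cenpa, chr5:30666766-30666915, plus strand: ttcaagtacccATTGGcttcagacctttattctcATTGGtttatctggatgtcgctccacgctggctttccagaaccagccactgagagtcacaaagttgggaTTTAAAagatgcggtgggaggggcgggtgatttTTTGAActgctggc
Top2a, chr11:99024160-99024309, minus strand: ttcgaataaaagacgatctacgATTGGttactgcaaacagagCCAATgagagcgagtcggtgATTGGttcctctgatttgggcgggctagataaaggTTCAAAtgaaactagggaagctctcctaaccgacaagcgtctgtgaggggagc
Kif11, chr19:37376262-37376411, plus strand: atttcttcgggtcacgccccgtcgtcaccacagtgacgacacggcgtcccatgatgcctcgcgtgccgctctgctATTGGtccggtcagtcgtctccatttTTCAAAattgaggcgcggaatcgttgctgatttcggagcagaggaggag
Prc1, chr7:80294331-80294480, plus strand: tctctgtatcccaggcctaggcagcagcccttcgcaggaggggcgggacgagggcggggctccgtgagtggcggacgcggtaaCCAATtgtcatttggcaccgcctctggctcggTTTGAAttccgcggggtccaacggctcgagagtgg
In 7 of these 8 promoters TTTGAA lies within the printed window, and Ccnb1 has TTTAAA in its place. The distances from the start were -15 and -71 for Cdk1, 5 for Ccnb2, -18 for Cdc20, 17 for Cenpa, -23 for Top2a, -19 for Kif11 and -5 for Prc1, counted at the first base of the match. Cenpa also carries TTTAAA at -17.

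Library depth was 45545182 to 64168308 counts per sample, and the 50 members together took from 0.0156% of the counts in WT replicate 1 to 0.104% in HER2 mutant replicate 1. Levels below are in CPM, the counts scaled to library sizes corrected with TMM factors. A gene is said to be higher or lower where edgeR's quasi-likelihood test gave a Benjamini-Hochberg adjusted p under 0.05 over all 24252 genes, and every adjusted p below comes from that test. Calls by DESeq2, a further tool, are also given. The share of all genes that DESeq2 called was not counted, so its counts cannot be set against edgeR's shares. Erbb2 was at 145 to 171 CPM in WT and 149 to 188 in the PIK3CA mutants, and at 2696 to 4632 in the HER2 mutants and 1498 to 2751 in the double mutants. Pik3ca ranged from 75.9 to 85.7 CPM in WT, from 91.6 to 111 in the PIK3CA mutants, from 61.4 to 74.1 in the HER2 mutants and from 109 to 122 in the double mutants. Epithelial markers were present in every group, with Epcam at 479 to 699 CPM and Krt8 at 266 to 1223 CPM over the 16 samples.

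Mitotic genes, among them Ckap2, Cenpa, Bub1b, Cdc20 and Cdc25c in all 3 mutant genotypes, were higher in mutant organoids than in WT. None was lower in edgeR's or DESeq2's test, and none was lower at an unadjusted p under 0.05. In the double mutants 15 of the 50 members were higher, where 5.03% of all tested genes were higher, with a median log2 fold change of 1.32 over the members and 0.01 over all genes. In the HER2 mutants 15 members were also higher, against 4.75% of all genes, with a median of 1.28 (0.03 over all genes). In the PIK3CA mutants 5 members were higher, against 1.49% of all genes, with a median of 0.95 (-0.03 over all genes). The estimate was above 0 for 49 members in the double mutants, 49 in the HER2 mutants and 47 in the PIK3CA mutants. Every double mutant sample lay above every WT sample for 24 members, which held for 9.68% of all genes. The same held for 15 members in the HER2 mutants (9.80% of all genes). In the PIK3CA mutants it held for 9 members (13.8% of all genes), which is near the share of all genes and is not read as a result about the members. An unadjusted p under 0.05 in edgeR's test is the threshold used below where counts are small. In the double, HER2 and PIK3CA mutants 28, 32 and 19 of the 50 members passed it. Of all genes 27.1%, 25.7% and 16.8% did so. The 3 comparisons share the WT samples, so their counts are not independent of each other.

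The counts depended on single libraries. Against WT the double mutants had 9 members higher without WT replicate 1 or without WT replicate 2, and 23 without HER2 mutant replicate 1, which enters that comparison through the shared estimate of the spread. The HER2 mutant count of 15 became 4, 6 and 6 without WT replicates 1, 2 and 3, and 8 without HER2 mutant replicate 1, where the median log2 fold change was 0.84. It was 2 (Cenpa and Ect2) when only the HER2 mutant and WT samples were fitted. The PIK3CA mutant count of 5 became 1 without any one of the 3 WT replicates or of PIK3CA mutant replicates 1, 2 and 4, and 2 without double mutant replicate 1, 4 or 5. In the double mutants 9 of the 15 genes stayed higher whichever of the 8 compared samples was left out: Cdk1, Bub1b, Cenpa, Prc1, Cdc20, Cdc25c, Anln, Ect2 and Ckap2. In the HER2 mutants 4 of 15 did so over 7 such fits, namely Bub1b, Cenpa, Ect2 and Ckap2, and in the PIK3CA mutants Cenpa alone did.

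**Figure D1:**
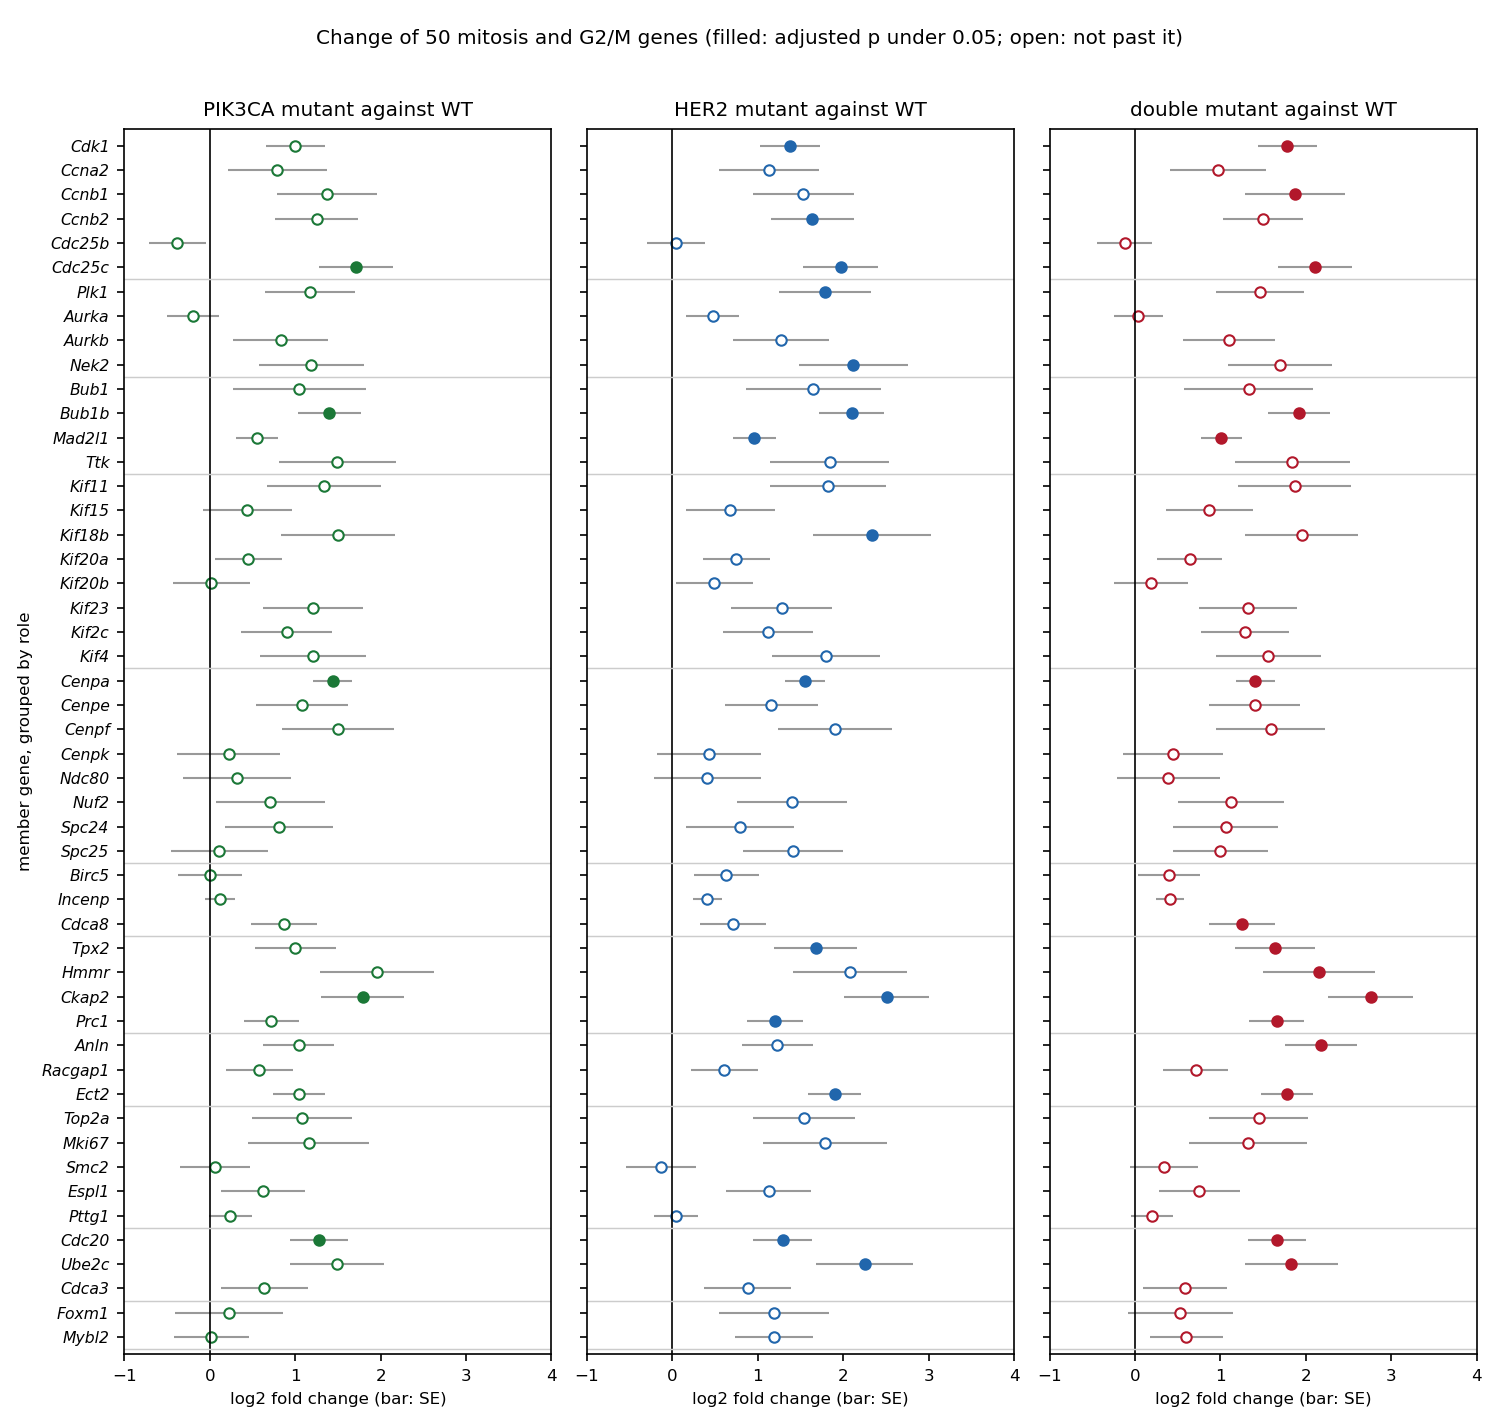
Log2 fold change against WT (x axis, bars are the SE) of the 50 members (y axis, grouped by role) in PIK3CA mutant, HER2 mutant and double mutant organoids, filled where adjusted p was under 0.05 in edgeR's quasi-likelihood test. Filled points number 5, 15 and 15, all to the right of 0, with Ckap2 farthest right in the HER2 mutants (2.51) and the double mutants (2.76).

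Among the genes that drive entry into mitosis, Cdk1, Ccnb1 and Cdc25c were higher in the double mutants, Cdk1, Ccnb2 and Cdc25c in the HER2 mutants, and Cdc25c alone in the PIK3CA mutants. Cdk1 (ENSMUSG00000019942, chr10:69335146-69352938, minus strand), the kinase at the centre of this step, stood at 2.57, 6.22 and 4.99 CPM in WT, 12.4, 10.6, 5.96 and 7.7 in the PIK3CA mutants, 17.8, 6.98, 10.9 and 12.3 in the HER2 mutants and 18, 19.8, 14.1, 12.8 and 13.9 in the double mutants. All HER2 mutant and double mutant samples exceeded the highest WT sample, and PIK3CA mutant replicate 3 fell below it. It was 3.43-fold higher in the double mutants (log2 fold change 1.78, SE 0.345, adjusted p = 0.00351) and 2.61-fold higher in the HER2 mutants (log2 fold change 1.38, SE 0.349, adjusted p = 0.0213). The PIK3CA mutant estimate was 1.00 (SE 0.345, adjusted p = 0.129). The call in the HER2 mutants was lost without WT replicate 1 or 3. Cyclin B1, encoded by Ccnb1 (ENSMUSG00000041431, chr13:100778650-100786570, minus strand), is the partner of Cdk1 at mitotic entry, and its mRNA was at 1.03, 2.64 and 4.24 CPM in WT, 11, 7.5, 3.79 and 5 in the PIK3CA mutants, 14.6, 3.76, 3.43 and 8.66 in the HER2 mutants and 16, 6, 4.89, 10.5 and 10.7 in the double mutants. Its 5 double mutant values all lay above WT (log2 fold change 1.87, SE 0.584, adjusted p = 0.049), but the call was lost in 7 of 8 fits with 1 sample left out, all but the one without double mutant replicate 3. The HER2 mutants overlapped WT for Ccnb1, with an adjusted p of 0.114, and DESeq2 called Ccnb1 and Ccnb2 in both groups. Cyclin B2, from Ccnb2 (ENSMUSG00000032218, chr9:70407692-70421547, minus strand), was at 1.89, 2.64 and 3.27 CPM in WT, 8.79, 7.4, 2.99 and 5.48 in the PIK3CA mutants, 13.4, 4.32, 4.12 and 10.6 in the HER2 mutants and 12, 5.16, 4, 7.44 and 8.21 in the double mutants. HER2 mutant and double mutant samples all lay above WT, with log2 fold change 1.64, SE 0.488, adjusted p = 0.0434 in the HER2 mutants and log2 fold change 1.50, SE 0.472, adjusted p = 0.0501 in the double mutants, so the estimates were close and fell on either side of the threshold. The HER2 mutant call was lost without any one WT replicate or HER2 mutant replicate 1 or 4.

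Cyclin A2, which acts in S phase and G2, did not pass the test in any comparison with WT. Ccna2 was at 1.84, 4.86 and 5.26 CPM in WT, 9.73, 7.85, 3.68 and 6.25 in the PIK3CA mutants, 15.8, 4.74, 2.47 and 11.8 in the HER2 mutants and 13.9, 6.21, 3.67, 7.17 and 8.03 in the double mutants. Samples of every mutant group overlapped WT, and the log2 fold changes were 0.79, 1.13 and 0.97 in the PIK3CA, HER2 and double mutants. The exons of Ccna2 share 12.5% of their length with Exosc9 on the opposite strand, and whether the counting used strand is not given in the sources used here. The 2 phosphatases differed from each other. Cdc25c, which activates Cdk1 at mitotic entry, was at 0.629, 0.86 and 0.701 CPM in WT, 3.04, 2.69, 1.42 and 2.39 in the PIK3CA mutants, 5.66, 1.46, 1.6 and 2.7 in the HER2 mutants and 3.95, 3.19, 2.34, 2.62 and 3.73 in the double mutants. It was a low gene in WT, and every mutant sample exceeded every WT sample. The fold changes were 3.26, 3.91 and 4.33 in the PIK3CA, HER2 and double mutants (adjusted p = 0.0341, 0.0115 and 0.00469). Leaving out any sample but PIK3CA mutant replicate 3 ended the PIK3CA mutant call, and leaving out WT replicate 1 or 3 ended the HER2 mutant call. An overlapping gene on the other strand, Gm3550, was at a mean of 0.0993 CPM. Cdc25b, which acts earlier in G2, was at 7.81, 10.3 and 13.8 CPM in WT, 10.6, 9.38, 5 and 7.66 in the PIK3CA mutants, 19.5, 6.55, 7.7 and 10.1 in the HER2 mutants and 8.56, 8.37, 11.5, 10.4 and 10.2 in the double mutants. Its groups overlapped, and the log2 fold change was -0.38, 0.04 and -0.12 in the 3 mutant groups (adjusted p = 0.629, 0.958 and 0.85).

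Of the 4 mitotic kinases, Plk1 and Nek2 were higher in the HER2 mutants, and none of the 4 passed edgeR's test in the other groups. At an unadjusted p under 0.05 there were 2 in the double mutants and 1 in the PIK3CA mutants, and DESeq2 called 2 (Plk1 and Nek2) in the double mutants and 0 in the PIK3CA mutants. Plk1 (ENSMUSG00000030867, chr7:122159439-122169873, plus strand), a kinase of mitotic entry, spindle formation and cytokinesis, was at 1.35, 2.86 and 4.09 CPM in WT, 9.13, 6.16, 3.76 and 5.82 in the PIK3CA mutants, 20.7, 4.53, 4.94 and 8.17 in the HER2 mutants and 11.4, 4.76, 5.56, 6.83 and 9.53 in the double mutants. Replicate 1 of the HER2 mutants stood well above the rest of its group, and all HER2 mutant and double mutant samples were above WT. The test gave log2 fold change 1.79, SE 0.538, adjusted p = 0.0445 in the HER2 mutants and log2 fold change 1.46, SE 0.516, adjusted p = 0.0796 in the double mutants. Nek2 (ENSMUSG00000026622, chr1:191821444-191833050, plus strand), which separates the centrosomes, was at 0.647, 1.14 and 1.85 CPM in WT, 3.72, 3.53, 1.33 and 2.46 in the PIK3CA mutants, 12.2, 1.89, 1.85 and 5.16 in the HER2 mutants and 5.44, 2.77, 2.32, 4.34 and 4.88 in the double mutants. The HER2 mutant value of replicate 3 equalled the highest WT value at the printed precision, and the test gave log2 fold change 2.12, SE 0.633, adjusted p = 0.0437. Double mutant samples were all above WT for Nek2, with log2 fold change 1.70, SE 0.606, adjusted p = 0.0819. The HER2 mutant calls of Plk1 and Nek2 were both lost without any one WT replicate or HER2 mutant replicate 1 or 4.

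The Aurora kinases passed no comparison. Aurora A, encoded by Aurka, acts at the spindle poles and was at 5.59, 7.06 and 7.27 CPM in WT, 8.17, 5.97, 4.69 and 4.34 in the PIK3CA mutants, 14.7, 5.32, 6.92 and 9.83 in the HER2 mutants and 8.81, 6.42, 6.36, 6.11 and 6.51 in the double mutants. Levels overlapped in all groups, and the log2 fold changes were -0.20, 0.47 and 0.04 in the PIK3CA, HER2 and double mutants. Aurora B, the kinase of the chromosomal passenger complex, was at 1.17, 2.84 and 2.97 CPM in WT, 5.98, 5.62, 2.33 and 2.66 in the PIK3CA mutants, 11.3, 2.56, 2.54 and 6.14 in the HER2 mutants and 7.61, 2.6, 3.47, 4.67 and 6.55 in the double mutants. Aurkb had larger estimates, 0.83, 1.27 and 1.10, with an SE of 0.542 in the double mutants (adjusted p = 0.207), and every mutant group had samples within the WT range.

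Of the 4 spindle checkpoint genes, Bub1b was higher in all 3 mutant groups and Mad2l1 in 2 of them. Bub1b (ENSMUSG00000040084, chr2:118598211-118641591, plus strand) encodes BubR1, which with Mad2 binds Cdc20 in the checkpoint complex. It was at 2.17, 3.92 and 4.04 CPM in WT, 10.1, 10.7, 5.89 and 9.06 in the PIK3CA mutants, 26.3, 7.27, 10.7 and 13.7 in the HER2 mutants and 14.3, 15, 12.3, 11.9 and 10.5 in the double mutants. Every mutant sample was above every WT sample. The change was 2.64-fold in the PIK3CA mutants (log2 fold change 1.40, SE 0.368, adjusted p = 0.0401), 4.30-fold in the HER2 mutants (log2 fold change 2.10, SE 0.378, adjusted p = 0.00351) and 3.79-fold in the double mutants (log2 fold change 1.92, SE 0.366, adjusted p = 0.00303). The PIK3CA mutant call was lost without any sample of those groups but PIK3CA mutant replicate 3. Mad2l1 (ENSMUSG00000029910, chr6:66535390-66547220, plus strand), which encodes Mad2, was at 5.42, 5.06 and 6.14 CPM in WT, 8.17, 10.1, 6 and 8.13 in the PIK3CA mutants, 13.6, 7.27, 8.55 and 13.9 in the HER2 mutants and 12.4, 12.8, 10, 8.94 and 11.7 in the double mutants. WT values were tightly grouped, and the HER2 mutants and double mutants lay above them. The changes of 0.96 (SE 0.248, adjusted p = 0.0229) in the HER2 mutants and 1.01 (SE 0.24, adjusted p = 0.0122) in the double mutants were smaller than for Bub1b but had small errors. The first was lost without any one WT replicate and the second without WT replicate 1 or 2.

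The checkpoint kinases Bub1 and Ttk (Mps1) had larger errors and did not pass edgeR's test, while DESeq2 called Ttk in the HER2 and double mutants. Bub1 was at 0.157, 1.02 and 1.89 CPM in WT, 3.39, 2.29, 1.02 and 1.75 in the PIK3CA mutants, 6.87, 1.27, 1 and 3.71 in the HER2 mutants and 4.84, 1.49, 0.923, 2.59 and 3.01 in the double mutants. WT alone spanned 11.98 times from its lowest to its highest sample, the widest WT spread of any member. The double mutant estimate was 1.33 with an SE of 0.756 (adjusted p = 0.278). Ttk was at 0.262, 0.72 and 1.17 CPM in WT, 2.93, 2.02, 0.974 and 2.14 in the PIK3CA mutants, 5.49, 1.23, 0.868 and 2.72 in the HER2 mutants and 4.56, 1.2, 1.06, 3.34 and 2.74 in the double mutants. It had a log2 fold change of 1.84 in the double mutants and 1.84 in the HER2 mutants, with adjusted p-values of 0.0893 and 0.104. Double mutant replicate 3 and HER2 mutant replicate 3 fell within the WT range.

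**Figure D2:**
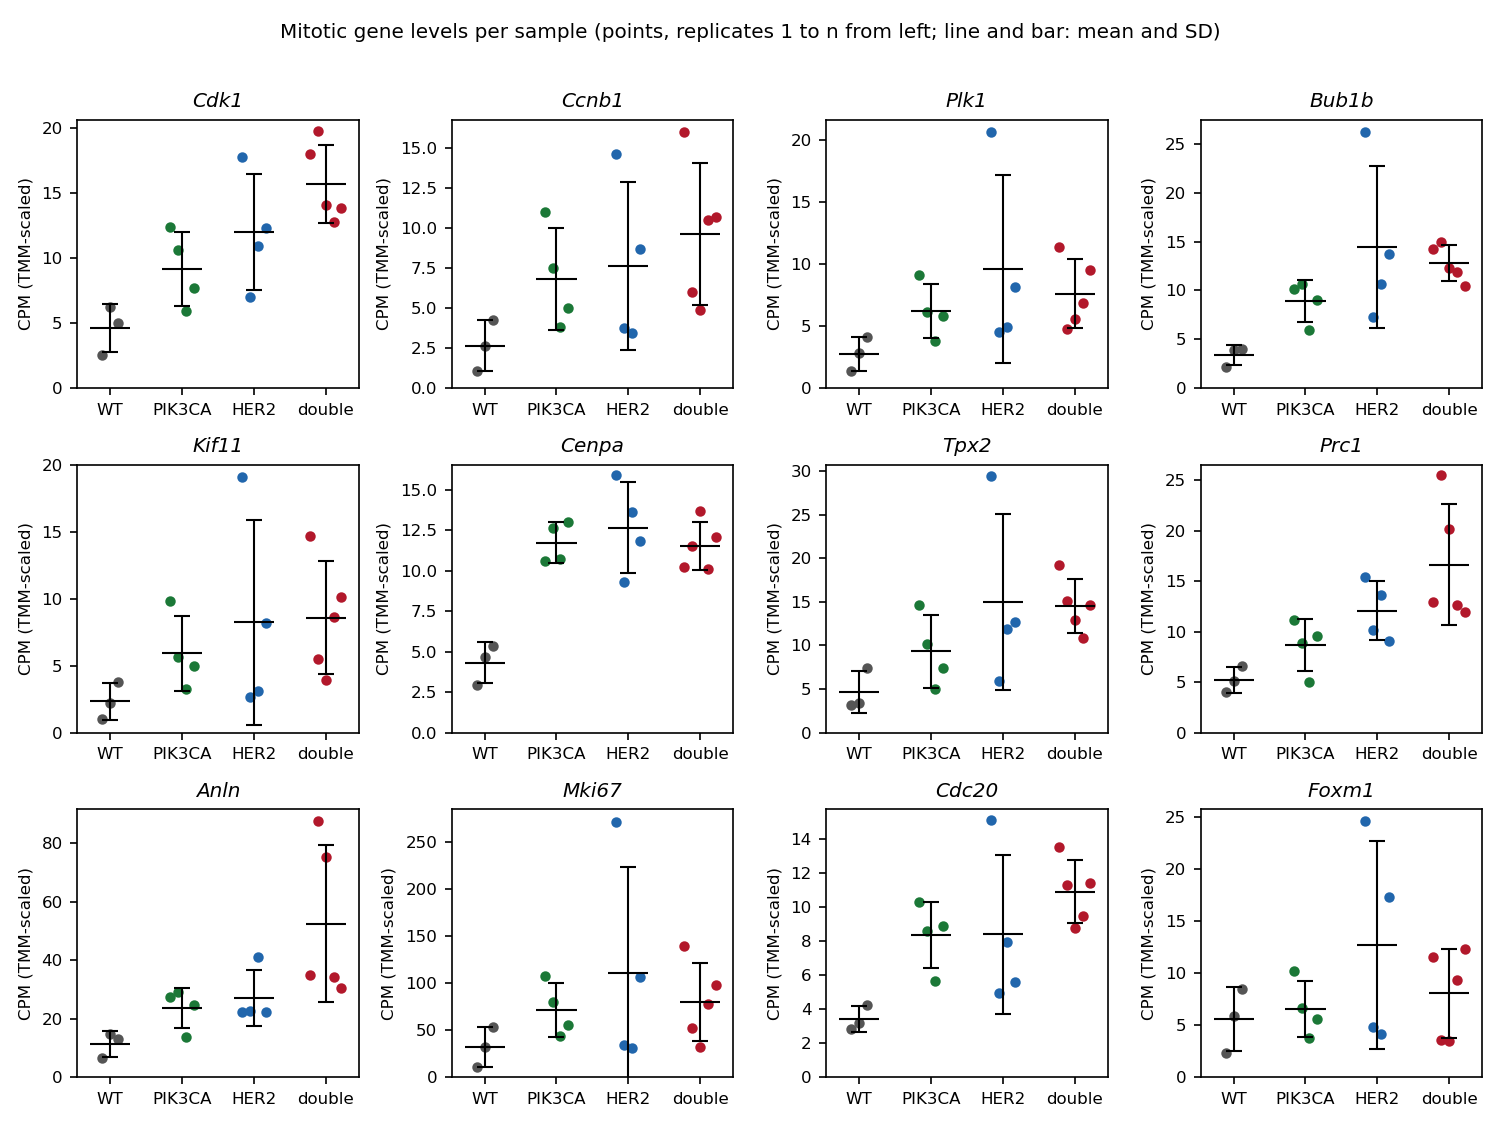
Level (y axis, TMM-scaled CPM from 0) of 12 members in each sample (points) by genotype (x axis), with the mean and SD as a line and bar. Cenpa separates every mutant sample (9.31 CPM or more) from WT (5.37 or less), whereas Mki67 and Foxm1 overlap, with HER2 mutant replicate 1 high at 271 and 24.6 CPM.

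None of the 8 kinesins was higher in the double mutants or the PIK3CA mutants, and Kif18b was higher in the HER2 mutants. In edgeR 5 kinesins had an unadjusted p under 0.05 in the double mutants and 1 in the PIK3CA mutants, and DESeq2 called 3 (Kif11, Kif4 and Kif18b) in the double mutants, the same 3 in the HER2 mutants and 0 in the PIK3CA mutants. Kif18b (ENSMUSG00000051378, chr11:102905529-102925124, minus strand), a motor that shortens astral microtubules, was at 0.629, 0.941 and 2.4 CPM in WT, 6.3, 4.36, 1.88 and 2.52 in the PIK3CA mutants, 17.3, 2.52, 2.83 and 4.24 in the HER2 mutants and 6.83, 3.48, 3.55, 5.8 and 5.95 in the double mutants. HER2 mutant replicate 1 was at several times the level of the other 3 HER2 mutants, and without it the call was lost, as it was without any one WT replicate. The estimates were 2.34 (SE 0.691, adjusted p = 0.0417) in the HER2 mutants and 1.95 (SE 0.663, adjusted p = 0.0691) in the double mutants. Kif11 (Eg5), which pushes spindle poles apart, was at 1.05, 2.18 and 3.79 CPM in WT, 9.86, 5.64, 3.25 and 5 in the PIK3CA mutants, 19.1, 2.64, 3.09 and 8.21 in the HER2 mutants and 14.7, 5.48, 3.93, 8.65 and 10.1 in the double mutants. All 5 double mutants were above WT for Kif11, but HER2 mutant replicates 2 and 3 and PIK3CA mutant replicate 3 were within the WT range. Its log2 fold change was 1.87 in the double mutants, with an SE of 0.66 and an adjusted p of 0.0792. Kif2c (MCAK), which depolymerises microtubules at centromeres, was at 0.822, 1.14 and 1.58 CPM in WT, 3.32, 2.35, 1.44 and 1.7 in the PIK3CA mutants, 5.62, 2, 1.42 and 1.25 in the HER2 mutants and 4.73, 1.66, 1.63, 2.92 and 3.52 in the double mutants. Its double mutant values lay just above the highest WT value or higher (log2 fold change 1.29, SE 0.518, adjusted p = 0.12).

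Kif20a, a motor of the central spindle, was at 3.67, 5.18 and 6.02 CPM in WT, 9.18, 7.56, 4.32 and 6.07 in the PIK3CA mutants, 12, 7.32, 3.92 and 10.2 in the HER2 mutants and 12.3, 4.26, 5.73, 7.83 and 8.5 in the double mutants. Its groups overlapped (log2 fold change 0.64, SE 0.38, adjusted p = 0.3 in the double mutants), and 29.3% of its exon length overlaps Cdc23 on the other strand, which averaged 35.1 CPM. Kif4, Kif15, Kif20b and Kif23 also overlapped WT in the double mutants, with log2 fold changes of 1.56, 0.87, 0.19 and 1.32. Kif4 shares 15.1% of its exon length with Pdzd11 on the other strand, which averaged 16 CPM. Pdzd11 was itself higher in the double mutants (log2 fold change 0.55, adjusted p = 0.0398). Kif20b had the smallest change of the 8 motors in each mutant group.

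Of 8 centromere and kinetochore genes Cenpa passed edgeR's test, and it was higher in all 3 mutant groups. DESeq2 also called Cenpf in the HER2 mutants and Cenpf and Cenpe in the double mutants. Cenpa (ENSMUSG00000029177, chr5:30666777-30674830, plus strand) encodes the histone H3 variant that marks centromeres. It was at 2.94, 4.66 and 5.37 CPM in WT, 10.6, 12.6, 10.7 and 13 in the PIK3CA mutants, 15.9, 9.31, 13.6 and 11.8 in the HER2 mutants and 10.2, 11.5, 13.7, 10.1 and 12.1 in the double mutants. The mutant groups overlapped one another and lay clear of WT. Group means were 4.32 ± 1.25 CPM (SD, n = 3) in WT, 11.7 ± 1.27 CPM (SD, n = 4) in the PIK3CA mutants, 12.6 ± 2.8 CPM (SD, n = 4) in the HER2 mutants and 11.5 ± 1.48 CPM (SD, n = 5) in the double mutants. The log2 fold change was 1.44 (SE 0.23, adjusted p = 0.00187), 1.55 (SE 0.231, adjusted p = 0.00126) and 1.41 (SE 0.223, adjusted p = 0.000834). Cenpa was the one member called in each of the 3 comparisons whichever compared sample was left out.

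The other kinetochore genes had larger errors. Cenpe, the kinetochore kinesin that aligns chromosomes, was at 1.8, 3.22 and 5.29 CPM in WT, 11.3, 8.49, 3.7 and 5.54 in the PIK3CA mutants, 14.3, 4.09, 3.43 and 8.84 in the HER2 mutants and 13.8, 6.25, 4.61, 9.42 and 11.3 in the double mutants. Some samples of each mutant group fell within the WT range, and the double mutant estimate was 1.40 (SE 0.53, adjusted p = 0.0994). Cenpf, a large kinetochore protein that accumulates in G2, was at 1.36, 3.24 and 5.76 CPM in WT, 14.5, 11.5, 5.34 and 7.93 in the PIK3CA mutants, 29.9, 4.3, 4.29 and 13 in the HER2 mutants and 17.3, 6.48, 6.69, 9.42 and 12.2 in the double mutants. Double mutant samples all exceeded WT, and HER2 mutant replicate 1 was far above the others (log2 fold change 1.59, SE 0.64, adjusted p = 0.12 in the double mutants). Ndc80, the microtubule-binding subunit of the complex named after it, was at 0.769, 1.5 and 1.65 CPM in WT, 2.96, 2.11, 0.354 and 1.09 in the PIK3CA mutants, 3, 1.14, 0.823 and 1.97 in the HER2 mutants and 2.77, 0.881, 0.726, 1.75 and 2.41 in the double mutants. All groups overlapped, with log2 fold changes of 0.32, 0.41 and 0.39. Its partners Nuf2, Spc24 and Spc25 had double mutant estimates of 1.12, 1.06 and 1.00, and Cenpk, of the inner kinetochore, 0.44. None of these passed the test, and all overlapped WT. Per kilobase of exon, Cenpk and Ndc80 were the lowest of the members, at means of 0.168 and 0.249 CPM per kb over the 16 samples, against 7.63 for Mki67, 5.67 for Incenp and 4.41 for Cdc20 at the top.

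Cdca8 was the one gene of 3 passenger complex subunits that passed, in the double mutants. Cdca8 (ENSMUSG00000028873, chr4:124918465-124939311, minus strand) encodes borealin and was at 2.03, 2.26 and 3.3 CPM in WT, 5.33, 6.34, 2.57 and 4.32 in the PIK3CA mutants, 7.96, 2.35, 3.34 and 2.87 in the HER2 mutants and 6.24, 5.12, 5.2, 6.82 and 6.75 in the double mutants. All double mutants were above WT (log2 fold change 1.25, SE 0.383, adjusted p = 0.0444), but the call was lost whichever of the 8 samples was left out. Birc5 (survivin) was at 4.51, 5.58 and 5.39 CPM in WT, 6.23, 5.54, 4.01 and 4.84 in the PIK3CA mutants, 17.1, 4.38, 5.1 and 5.28 in the HER2 mutants and 7.78, 6.59, 7.46, 6.3 and 5.83 in the double mutants. The double mutants lay just above WT, and HER2 mutant replicate 1 was far above the others, with a double mutant log2 fold change of 0.40 (SE 0.363, adjusted p = 0.529). Incenp, the scaffold of the complex, ranged over 17.4 to 25.1 CPM in WT and 24.8 to 30.7 in the double mutants. Its estimate was 0.41 with an SE of 0.166 (adjusted p = 0.122), the smallest error of any member.

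All 4 spindle and microtubule genes were higher in the double mutants, and Ckap2 was higher in all 3 mutant groups. Ckap2 (ENSMUSG00000037725, chr8:22168160-22185819, minus strand), a microtubule-associated protein of the spindle, had the largest change of the 50 genes in the HER2 and double mutants. It was at 1.03, 1.84 and 2.72 CPM in WT, 7.46, 7.15, 2.94 and 8.25 in the PIK3CA mutants, 17.4, 4.55, 14 and 6.59 in the HER2 mutants and 11.3, 18.1, 15, 9.44 and 9.57 in the double mutants. Every mutant sample lay above every WT sample, with PIK3CA mutant replicate 3 closest to them. The fold changes were 3.46 in the PIK3CA mutants (log2 fold change 1.79, SE 0.484, adjusted p = 0.0463), 5.68 in the HER2 mutants (log2 fold change 2.51, SE 0.499, adjusted p = 0.00615) and 6.79 in the double mutants (log2 fold change 2.76, SE 0.495, adjusted p = 0.00201). Leaving out any sample of those groups but PIK3CA mutant replicate 3 ended the PIK3CA mutant call. Prc1 (ENSMUSG00000038943, chr7:80294450-80316259, plus strand) bundles the microtubules of the central spindle and was at 4.04, 5.14 and 6.61 CPM in WT, 11.2, 8.84, 5.07 and 9.59 in the PIK3CA mutants, 15.4, 10.2, 13.6 and 9.09 in the HER2 mutants and 12.9, 25.5, 20.2, 12.7 and 12 in the double mutants. Double mutant replicates 2 and 3 were the highest of all 16 samples, and the other 3 double mutants also exceeded WT. The change was 3.16-fold (log2 fold change 1.66, SE 0.321, adjusted p = 0.0034) in the double mutants and 2.29-fold (log2 fold change 1.20, SE 0.325, adjusted p = 0.0298) in the HER2 mutants, where the call was lost without any one WT replicate or HER2 mutant replicate 1 or 3. Prc1 shares 11.1% of its exon length with Rccd1 on the opposite strand, whose log2 fold change in the double mutants was 0.42 (adjusted p = 0.365).

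Tpx2 (ENSMUSG00000027469, chr2:152847964-152895321, plus strand), which activates Aurora A on spindle microtubules, was at 3.16, 3.38 and 7.44 CPM in WT, 14.7, 10.2, 5 and 7.36 in the PIK3CA mutants, 29.4, 5.9, 11.9 and 12.7 in the HER2 mutants and 19.2, 15.1, 12.9, 10.9 and 14.7 in the double mutants. Double mutants were all above WT, and HER2 mutant replicate 2 was below the highest WT sample. The estimates were alike, 1.64 (SE 0.472, adjusted p = 0.0333) in the double mutants and 1.68 (SE 0.486, adjusted p = 0.0386) in the HER2 mutants. The double mutant call was lost without WT replicate 1 or 2 or double mutant replicate 1 or 2, and the HER2 mutant call without WT replicate 1 or 2 or HER2 mutant replicate 1. Hmmr (ENSMUSG00000020330, chr11:40701395-40733422, minus strand), a spindle protein that is also a hyaluronan receptor, was at 0.42, 1.1 and 1.95 CPM in WT, 6.38, 5.74, 2.28 and 3.63 in the PIK3CA mutants, 10.9, 2.02, 1.98 and 4.79 in the HER2 mutants and 8.53, 2.69, 2.85, 5.5 and 6.24 in the double mutants. Every mutant sample exceeded WT for Hmmr. It passed in the double mutants (log2 fold change 2.15, SE 0.654, adjusted p = 0.0425) and not in the HER2 mutants (log2 fold change 2.08, SE 0.668, adjusted p = 0.0589), DESeq2 called it in all 3 mutant groups, and the double mutant call was lost without any one WT replicate or double mutant replicate 1, 4 or 5.

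Of 3 cytokinesis genes, Anln and Ect2 were higher in the double mutants and Ect2 in the HER2 mutants. Anillin, from Anln (ENSMUSG00000036777, chr9:22332012-22389188, minus strand), is a scaffold of the contractile ring. It was at 6.5, 14.8 and 13.3 CPM in WT, 27.4, 29.2, 13.8 and 24.7 in the PIK3CA mutants, 22.2, 22.7, 41.3 and 22.2 in the HER2 mutants and 35.1, 87.6, 75.2, 34.3 and 30.5 in the double mutants. Double mutant replicates 2 and 3 were at more than 75 CPM and the other 3 between 30 and 36, all above WT. The change was 4.54-fold in the double mutants (log2 fold change 2.18, SE 0.424, adjusted p = 0.00351). The HER2 mutants were also all above WT (log2 fold change 1.23, SE 0.418, adjusted p = 0.0734) and were called by DESeq2. Ect2 (ENSMUSG00000027699, chr3:27097222-27153878, minus strand), the exchange factor that activates RhoA at the cleavage site, was at 2.27, 3.34 and 3.92 CPM in WT, 9.8, 7.46, 3.7 and 5.41 in the PIK3CA mutants, 12.8, 9.19, 14.8 and 10.5 in the HER2 mutants and 11.6, 12.9, 12, 8.29 and 9.78 in the double mutants. HER2 mutant and double mutant samples were all above 8 CPM and WT below 4. The fold changes were 3.72 in the HER2 mutants (log2 fold change 1.90, SE 0.314, adjusted p = 0.00227) and 3.44 in the double mutants (log2 fold change 1.78, SE 0.304, adjusted p = 0.00141), and the PIK3CA mutant estimate was 1.05 (adjusted p = 0.0632), which DESeq2 called. Racgap1, the Ect2 partner in centralspindlin, ranged over 7.83 to 11.6 CPM in WT and 10.8 to 22.3 in the double mutants, with log2 fold change 0.71, SE 0.38, adjusted p = 0.245.

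None of the 5 genes of chromosome structure and sister separation passed edgeR's test, among them the proliferation marker Mki67. In the double, HER2 and PIK3CA mutants 1, 3 and 0 of them had an unadjusted p under 0.05, and DESeq2 called 0, 2 (Mki67 and Top2a) and 0. Mki67, which encodes the Ki-67 antigen that coats mitotic chromosomes, was at 10.6, 32.8 and 53 CPM in WT, 108, 80.4, 43.6 and 55.3 in the PIK3CA mutants, 271, 34.3, 31.2 and 107 in the HER2 mutants and 140, 52.8, 32.4, 78 and 98.1 in the double mutants. HER2 mutant replicate 1 was the highest of all samples, and each mutant group had samples within the WT range. The log2 fold change was 1.16 (SE 0.709, adjusted p = 0.448), 1.79 (SE 0.727, adjusted p = 0.132) and 1.32 (SE 0.692, adjusted p = 0.236) in the PIK3CA, HER2 and double mutants. Top2a, topoisomerase II alpha, which untangles sister chromatids, was at 4.91, 10.7 and 16.5 CPM in WT, 33.2, 26.3, 14.1 and 16.5 in the PIK3CA mutants, 75.1, 13.1, 10.5 and 25.6 in the HER2 mutants and 44.6, 22.7, 18.8, 28.9 and 31.2 in the double mutants. Double mutants were all above WT for Top2a, with log2 fold change 1.45, SE 0.58, adjusted p = 0.119. Smc2, a core subunit of condensin, was at 9.3, 11.5 and 13.5 CPM in WT, 15, 13.7, 10.1 and 8.93 in the PIK3CA mutants, 20, 6.63, 5.72 and 9.48 in the HER2 mutants and 24.3, 9.63, 8.05, 15 and 15.5 in the double mutants. Its estimate was -0.13 in the HER2 mutants and 0.34 in the double mutants, with all groups overlapping.

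Securin and separase are the inhibitor and the protease of sister separation. Pttg1, which encodes securin, was at 6.82, 6.12 and 5.37 CPM in WT, 7.08, 7.31, 7.24 and 7.2 in the PIK3CA mutants, 3.3, 8.02, 8.12 and 5.61 in the HER2 mutants and 6.06, 8.16, 7.87, 6.06 and 6.88 in the double mutants. It was lowest of all 16 samples in HER2 mutant replicate 1, where 37 members were highest, and its log2 fold changes were 0.24, 0.04 and 0.20. Separase, from Espl1, ranged over 2.3 to 3.9 CPM in WT, 2.76 to 12.5 in the HER2 mutants and 2.54 to 6.58 in the double mutants (log2 fold change 0.75, SE 0.475, adjusted p = 0.332).

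Of the genes of APC/C function, Cdc20 was higher in all 3 mutant groups and Ube2c in 2. Cdc20 (ENSMUSG00000006398, chr4:118432901-118437352, minus strand), the activator of the APC/C in mitosis, was at 2.83, 3.18 and 4.27 CPM in WT, 10.3, 8.57, 5.67 and 8.86 in the PIK3CA mutants, 15.1, 4.93, 7.94 and 5.61 in the HER2 mutants and 13.5, 11.3, 8.77, 9.46 and 11.4 in the double mutants. Every mutant sample lay above every WT sample. The changes were 2.43-fold (log2 fold change 1.28, SE 0.343, adjusted p = 0.044), 2.45-fold (log2 fold change 1.29, SE 0.343, adjusted p = 0.027) and 3.17-fold (log2 fold change 1.66, SE 0.339, adjusted p = 0.00465) in the PIK3CA, HER2 and double mutants. The PIK3CA mutant call was lost without any compared sample but PIK3CA mutant replicate 3, and the HER2 mutant call without any one WT replicate or HER2 mutant replicate 1. Ube2c (ENSMUSG00000001403, chr2:164769898-164778822, plus strand), the ubiquitin-conjugating enzyme that works with the APC/C, was at 1.42, 3.5 and 5.19 CPM in WT, 15.3, 8.86, 5.82 and 7.82 in the PIK3CA mutants, 35.4, 7.23, 9.86 and 11.5 in the HER2 mutants and 17.7, 9.71, 7.4, 11.7 and 13.2 in the double mutants. Mutant samples all exceeded WT. It passed in the HER2 mutants (log2 fold change 2.25, SE 0.565, adjusted p = 0.0208) and the double mutants (log2 fold change 1.83, SE 0.541, adjusted p = 0.038), and the PIK3CA mutant estimate was 1.49 (adjusted p = 0.158). The HER2 mutant call was lost without WT replicate 1 or 2, and the double mutant call in 7 of 8 fits, all but the one without double mutant replicate 3. Tnnc2, which overlaps 22.8% of its exon length on the other strand, averaged 0.00637 CPM. Cdca3, an APC/C substrate, ranged over 1.21 to 3.17 CPM in WT and 2.12 to 5.39 in the double mutants (log2 fold change 0.58, SE 0.491, adjusted p = 0.489).

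The 2 transcription factors among the members passed in no comparison with WT, in edgeR or DESeq2. In edgeR 1 of them, Mybl2 in the HER2 mutants, had an unadjusted p under 0.05. Foxm1, which activates late cell cycle genes, was at 2.36, 5.92 and 8.46 CPM in WT, 10.2, 6.61, 3.81 and 5.64 in the PIK3CA mutants, 24.6, 4.8, 4.12 and 17.3 in the HER2 mutants and 11.5, 3.61, 3.53, 9.31 and 12.3 in the double mutants. Double mutant replicates 2 and 3 were below the WT values of replicates 2 and 3, and HER2 mutant replicates 1 and 4 were highest. The log2 fold change was 0.23, 1.19 and 0.53 in the PIK3CA, HER2 and double mutants (adjusted p = 0.902, 0.267 and 0.627). Mybl2, which encodes B-Myb, was at 1.59, 2.04 and 2.37 CPM in WT, 2.83, 2.42, 1.24 and 1.59 in the PIK3CA mutants, 9.37, 3.06, 1.74 and 4.11 in the HER2 mutants and 3.81, 2.58, 2.36, 3.33 and 3.13 in the double mutants. Its estimates were 0.02, 1.19 and 0.60, with groups that overlapped.

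Between mutant groups the differences stayed under the threshold in edgeR. No member passed between double and HER2 mutants, where 2.50% of all genes did, and 1 member (Anln, 0.96, SE 0.361) had an unadjusted p under 0.05 in edgeR's test, as did 17.8% of all genes. DESeq2 gave 0 there. No member passed between double and PIK3CA mutants, where 0.672% of all genes did, with 6 at an unadjusted p under 0.05 (Cdk1, Mad2l1, Prc1, Anln, Ect2 and Ckap2), a share no larger than the 12.4% of all genes, and 1, Prc1, called by DESeq2. No member passed between HER2 and PIK3CA mutants, where 4.41% of all genes did, with 5 at an unadjusted p under 0.05 (Aurka, Bub1b, Spc25, Mybl2 and Ect2), a smaller share than the 19.4% of all genes, and 1, Ect2, called by DESeq2. Without HER2 mutant replicate 2 or without HER2 mutant replicate 3, edgeR also called 1 member there. The median log2 difference over the members was -0.10 for double against HER2 mutants, 0.33 for double against PIK3CA mutants and 0.41 for HER2 against PIK3CA mutants, and over all genes -0.02, 0.04 and 0.07. These medians rested on single libraries. Without HER2 mutant replicate 1 the median was 0.47 for double against HER2 mutants and -0.10 for HER2 against PIK3CA mutants, so both changed sign. For double against HER2 mutants it also came to 0.01 without double mutant replicate 3, to -0.01 without double mutant replicate 2, to -0.05 without HER2 mutant replicate 4, to -0.23 without double mutant replicate 1, and to -0.28 and -0.27 without HER2 mutant replicates 2 and 3. For double against PIK3CA mutants it was 0.13 without double mutant replicate 1, 0.17 without PIK3CA mutant replicate 3 and 0.54 without PIK3CA mutant replicate 1. For HER2 against PIK3CA mutants it was 0.24 without PIK3CA mutant replicate 3 and 0.62 without PIK3CA mutant replicate 1. For Cdk1, Prc1, Anln and Ckap2 every double mutant sample lay above every PIK3CA mutant sample. None of them passed edgeR's test there (adjusted p = 0.286, 0.166, 0.194 and 0.334). The share of all genes with such a separation was not counted for this pair of groups.

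The interaction sets the double mutant against both single mutants added together, in log2 units. The estimate was below 0 for 48 of 50 members, with a median of -0.94 (0.01 over all genes). That median was -0.37 without HER2 mutant replicate 1, and -0.64 without WT replicate 1 or with the replicate number as a block. Cenpa passed the test, with -1.57 (SE 0.296, adjusted p = 0.0201), where 1.06% of all genes passed. At an unadjusted p under 0.05 there were 11 members and 13.6% of all genes, and DESeq2 called 2 members, Cenpa and Bub1b. Its single mutant changes of 1.44 and 1.55 sat beside a double mutant change of 1.41. The call was lost without WT replicate 1 or PIK3CA mutant replicate 4 and with the replicate block (0 members), and 2 members were called without HER2 mutant replicate 2. The interaction of every member is computed with the same WT samples, the only group from normal breast. Tissue source therefore enters the interaction too and cannot be told apart from genotype there.

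Samples of 1 genotype differed widely in the members. HER2 mutant replicate 1 was the highest of all 16 samples for 37 members, and WT replicate 1 the lowest for 35. PIK3CA mutant replicate 3 was the lowest of its group for 44 members. The shares of all genes that were highest or lowest in these samples were not counted. The ratio of highest to lowest sample had a median over members of 2.22 in WT, 2.47 in the PIK3CA mutants, 4.44 in the HER2 mutants and 2.47 in the double mutants. The HER2 mutant spread was led by replicate 1, whose members summed to 1043 CPM against 283, 341 and 524 in replicates 2, 3 and 4. WT members summed to 149, 234 and 312 CPM.

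Within the double mutants the members split by replicate. The share of all genes that split in this way was not counted, so the split is not read as particular to the members. Replicates 2 and 3 were both below the other 3 for 34 members, among them Mki67, Top2a, Ccna2, Ccnb1, Plk1, Foxm1 and all 8 kinesins. They were both above the other 3 for 6 members, Prc1, Incenp, Anln, Ect2, Pttg1 and Ckap2, and neither for 10. Anln, Prc1 and Ckap2 thus had their highest double mutant values in the 2 samples where Mki67 was lowest. Without those 2 samples the double mutants had 15 members higher than WT, with a median log2 fold change of 1.53. Of these, 13 were among the 15 called with all samples, Ccnb2 and Ttk were added, and Tpx2 and Cdca8 were lost. HER2 mutant replicate 3, low for Mki67 (31.2 CPM), was the highest of its group for Anln (41.3 CPM) and Ect2 (14.8 CPM), but for Prc1 and Ckap2 the highest was replicate 1 (15.4 and 17.4 CPM), where Mki67 was highest.

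**Figure D3:**
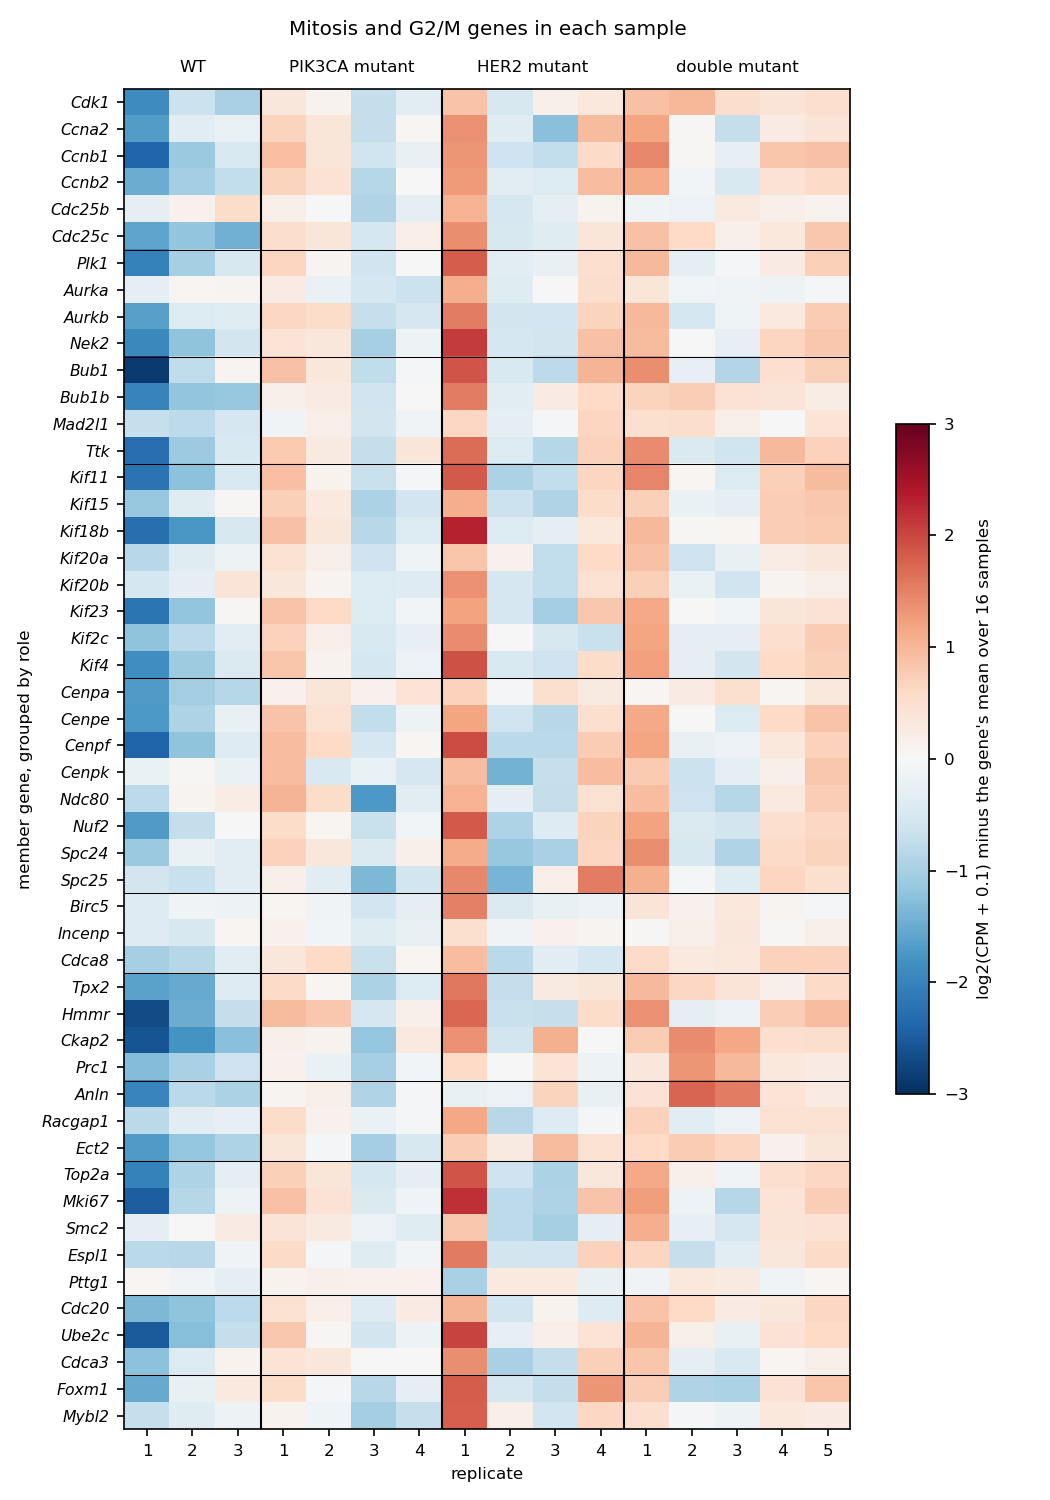
Level of each of the 50 members (y axis, grouped by role) in each of the 16 samples (x axis, replicate number within genotype), as log2(CPM + 0.1) minus the gene's mean over all samples, from blue (low) to red (high). HER2 mutant replicate 1 is red for most members and WT replicate 1 blue, and double mutant replicates 2 and 3 are red for Anln, Prc1, Ckap2 and Ect2 but pale or blue for most others.

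The further lists below were chosen by function with earlier results of these data known, so they give no independent support. Other genes of mitosis, outside the 50, were read in the same fit. Of 68 such genes 24 were higher in the double mutants, 14 in the HER2 mutants and 3 in the PIK3CA mutants, with median log2 fold changes of 1.01, 0.86 and 0.64. The 3 largest changes in the double mutants were Psrc1 (3.43), Gtse1 (2.94) and Spag5 (2.57). The largest of them, Psrc1, a spindle microtubule protein, had an SE of 0.49 and an adjusted p of 0.000459. Of 24 genes of the MuvB and DREAM complexes and the APC/C with its regulators, 2 were higher (Mybl1, 2.50, and Cdc16, 0.48) and 1 lower (Rbl2, -0.65) in the double mutants, with a median of 0.06. In the HER2 mutants 2 were higher, among them Mybl1 (2.07), and 1 lower (Rbl2, -0.57), with a median of 0.05. In the PIK3CA mutants edgeR called 0, with 4 at an unadjusted p under 0.05 and a median of 0.01, and DESeq2 called 1, Mybl1. Mybl1 encodes A-Myb, and Rbl2 encodes p130, the pocket protein of DREAM in quiescent cells. Of 44 genes of DNA replication, which acts in the preceding S phase, 2 were higher in the double mutants (Mcm10, 1.16, and Cdt1, 0.99), 1 in the HER2 mutants (Mcm10, 1.09) and 0 in the PIK3CA mutants (edgeR; 0 also at an unadjusted p under 0.05 and in DESeq2), with medians of 0.22, 0.13 and 0.03. The medians of the members in the same comparisons were 1.32, 1.28 and 0.95. Of all tested genes, 5.03%, 4.75% and 1.49% were higher in the double, HER2 and PIK3CA mutants. The few calls among the MuvB, DREAM and APC/C genes and the DNA replication genes were near these shares and are not read as a result about those lists. Members with TTTGAA in their promoter had a median of 1.46 in the double mutants (11 of 31 higher), and members without it 1.01 (2 of 11 higher). Ccnb1, which has TTTAAA, counts among those without TTTGAA. Members whose promoters were not analysed, among them Tpx2 and Cdc25c, are in neither set. Whether the motif bears on the change was not tested.

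**Figure D4:**
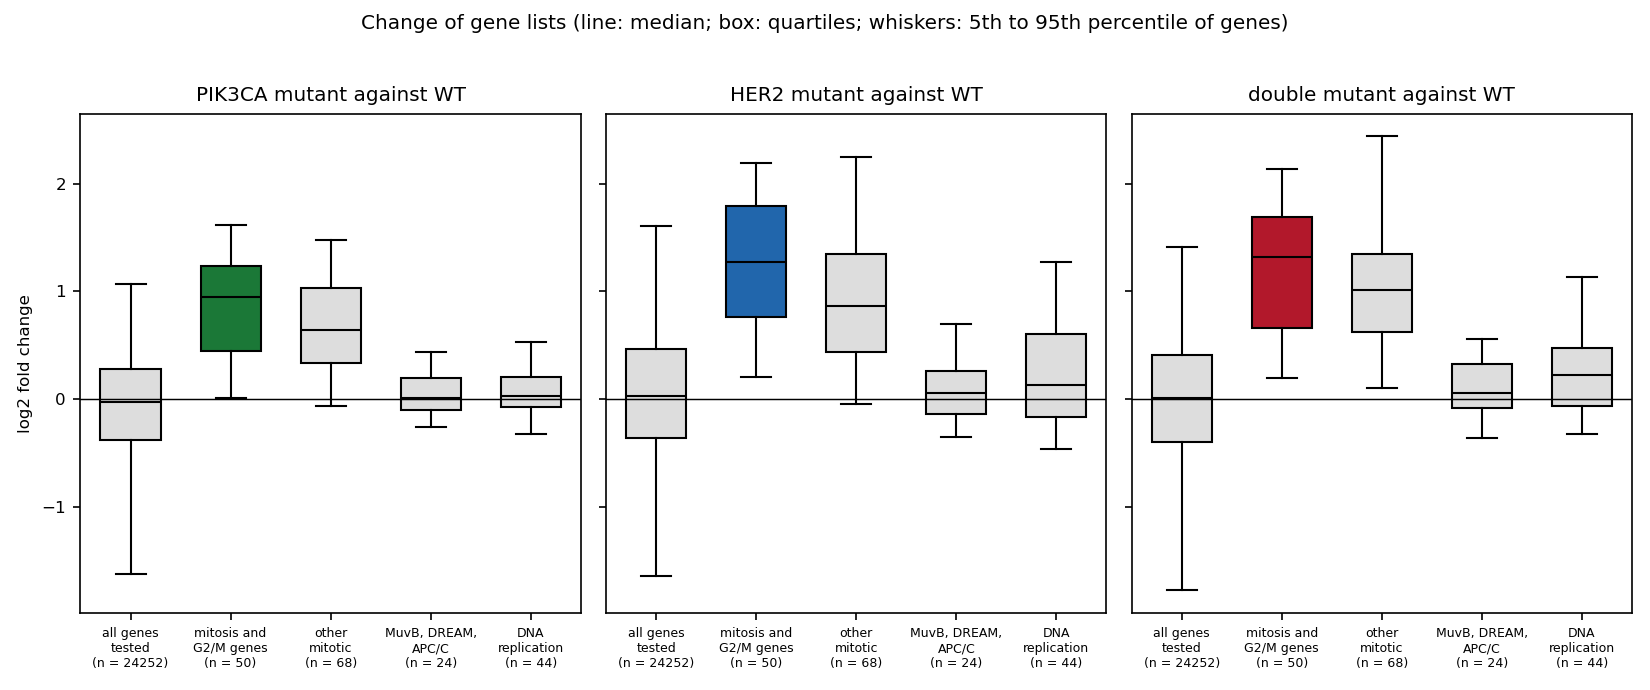
Log2 fold change against WT (y axis) of all 24252 tested genes, the 50 members and 3 other gene lists (x axis), in each mutant genotype, with the median as a line, quartiles as a box and whiskers from the 5th to the 95th percentile of genes. The members have the highest median in each panel (0.95, 1.28 and 1.32), followed by the other mitotic genes, and the DNA replication genes lie near all genes.

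Markers of other cell types moved with the difference between WT and mutants. The 8 macrophage markers summed to 1028 to 3506 CPM in WT, 610 to 773 in the PIK3CA mutants, 272 to 450 in the HER2 mutants and 240 to 425 in the double mutants, and 6, 4 and 6 of the 8 were lower than WT. Lyz2 was at 405 to 2649 CPM in WT, 0.0413 to 7.84 in the PIK3CA mutants, 0.123 to 142 in the HER2 mutants and at most 0.337 in the double mutants. Between HER2 and PIK3CA mutants the order of the sums was not that of most macrophage markers. The estimate was above 0 in the HER2 mutants for 7 of the 8 (median log2 difference 1.96), and 1, Cd14, was lower (-1.22, adjusted p = 0.0254). The 7 fibroblast markers summed to 352 to 1940 CPM in WT, 68.1 to 485 in the PIK3CA mutants, 35.2 to 639 in the HER2 mutants and 26.6 to 60.7 in the double mutants, and 1, 2 and 6 of the 7 were lower. Endothelial, lymphocyte and adipocyte markers summed to at most 4.8, 2.51 and 0.984 CPM in any sample, with Ms4a1 at 0 in most. The part of the macrophage and fibroblast markers in the WT comparisons was not tested. In WT replicate 1, where 35 members were lowest, macrophage markers summed to 1905 CPM and fibroblast markers to 352, the lowest fibroblast sum of the WT group. Basal epithelial markers summed to 504 to 1039 CPM in WT, 516 to 1385 in the PIK3CA mutants, 262 to 972 in the HER2 mutants and 561 to 1036 in the double mutants. Of the 7 basal markers, 2 were lower in the HER2 mutants than in WT, Krt5 (-2.88, adjusted p = 0.00592) and Mylk (-2.74, adjusted p = 0.00118). Krt5 was at 14.1 to 52 CPM in the HER2 mutants and 131 to 345 in WT. Krt17 was higher in the double mutants (2.49, adjusted p = 0.0391), and no basal marker was called in the PIK3CA mutants. HER2 mutant replicate 1, where 37 members were highest, had the highest basal sum of its group (972 CPM) and the lowest luminal sum (1459 CPM). Luminal markers summed to 1518 to 1793 CPM in WT, 2457 to 3126 in the PIK3CA mutants, 1459 to 2565 in the HER2 mutants and 2145 to 4537 in the double mutants. Every PIK3CA mutant and double mutant sample was thus above WT for this sum, and the highest, 4537 CPM, was in double mutant replicate 2. Of the 6 luminal markers 1, Krt8, was higher than WT in the double mutants (1.14, adjusted p = 0.0127), and none was called in the other mutant groups. The part of the epithelial markers in the WT comparisons was not tested.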

How the data were processed

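The authors deposited whole-number read counts per gene for 16 samples and a second table of normalized signal values. Per the submitters' processing notes the tools were bcl2fastq 2.20, STAR 2.0.4b, Subread featureCounts 1.4.5 and DESeq2 1.33.5, and the build was mm10; the annotation release and strand setting are not given in the sources used here. Per the labels' protocols, the library kit was SMARTER mRNA-Seq. The deposited signal values were each sample's counts divided by 1 constant, within a relative deviation of 4.99e-10 over genes with 1000 or more counts.

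Of 55774 entries, 287 repeated a gene identifier with identical counts and were dropped. Counts were tested with edgeR 4.0.16 in R 4.3.3 (filterByExpr, TMM, glmQLFit and glmQLFTest, two-sided) in 1 model of the 16 samples that held genotype alone, and p-values were adjusted by Benjamini-Hochberg over 24252 genes within each comparison. The SE is the absolute log2 fold change divided by the square root of F. The 6 pairs of genotypes and the interaction were compared. Depth was 45545182 to 64168308 counts per sample. Alternatives were DESeq2 1.42.0, median-of-ratios and upper-quartile scaling, no low-count filter, limma 3.58.1 on log2(normalized value + 1), a replicate block, fits of only the 2 genotypes compared, and fits without single samples or without double mutant replicates 2 and 3.

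The members and the other lists were chosen with earlier results of these data known. Values are given in every sample for a set of members with different roles and for the 3 called members with the largest changes in each comparison, and other members are given where they passed the test. Of list genes, at most the 3 largest changes are named. Gene positions are from GENCODE M21 on GRCm38, and promoters from RefSeq on GRCm38.p6. The promoters of Incenp, Ccna2, Foxm1, Kif20a, Cdc25c, Aurkb, Spc24 and Tpx2 were not analysed here. Cell type markers were read as sums of CPM. Outlying samples were sought with Dixon's ratio in groups of 4 and 5.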

Additional observations from a re-analysis of the deposited data

Results flagged for a closer look

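In 4 cases a single sample lay far from the others of its group, out of 150 tests of a member in a group of 4 or 5 samples, where chance flags about 1 in 20 such tests. Aurka was at 8.81 CPM in double mutant replicate 1 and at 6.11 to 6.51 in the other double mutants. Birc5 was at 17.1 CPM in HER2 mutant replicate 1 and at 4.38 to 5.28 in the other HER2 mutants. Anln was at 41.3 CPM in HER2 mutant replicate 3 and at 22.2 to 22.7 in the other HER2 mutants. Ckap2 was at 2.94 CPM in PIK3CA mutant replicate 3 and at 7.15 to 8.25 in the other PIK3CA mutants.

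Cenpa had an interaction of -1.57 on the log2 scale (edgeR's quasi-likelihood test, adjusted p = 0.0201), where 1.06% of all genes passed. The call was lost without WT replicate 1 or PIK3CA mutant replicate 4 and with the replicate block. Tissue source enters the interaction through WT and cannot be told apart from genotype there. The mutant groups were all above WT.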

How the results depend on the processing

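The number of members past the threshold depended on the tool and on single libraries, while no called change turned direction under any alternative run. There were only 3 WT samples, and the HER2 mutants were widely spread. DESeq2 called 24 members in the HER2 mutants and 24 in the double mutants against WT, 1 member each for double and HER2 mutants against PIK3CA mutants, and 2 in the interaction. The share of all genes that DESeq2 called was not counted. Fitted on only the genotypes compared, the HER2 mutants had 2 members higher than WT. The cause of these differences was not tested. Median-of-ratios and upper-quartile scaling, no low-count filter, limma on normalized values and the fit without double mutant replicates 2 and 3 kept each count within 1.5 times. Leaving out single samples gave 1 to 6 members for PIK3CA mutants, 4 to 19 for HER2 mutants and 9 to 23 for double mutants against WT, 0 to 0 for double mutants against either single mutant, 0 to 1 for HER2 against PIK3CA mutants and 0 to 2 in the interaction.

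With a replicate block the members higher than WT numbered 2 in the PIK3CA mutants, 5 in the HER2 mutants and 10 in the double mutants, and 0 passed in the interaction. Same-numbered samples did not deviate together in every pair: the correlation of their deviations was 0.0711 to 0.273 for HER2 and double mutants, with a mean of 0.157 against -0.0407 for other numbers, and 2 of 4 HER2 mutants correlated best with their own number. The replicate numbers were therefore not taken as pairing.

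Over 350 pairs of member and comparison, of which 36 were called, the single-sample fits ended a call 143 times and added one 22 times. The other alternatives ended a call 36 times and added one 42 times.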
